A study of Homo sapiens with 3 samples.

Results

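Signals of 10 S100 genes (S100A1, S100A2, S100A3, S100A4, S100A6, S100A8, S100A9, S100A10, S100A13 and S100B) were followed across 3 populations of 1205Lu, an established human melanoma line that was derived from WM793 by way of a lung metastasis in a mouse xenograft. These genes were chosen by symbol with their measured signals on the same 3 arrays in view, so their ratios are a description and carry no test. They were read by 11 of the 41000 probes on the array and are 10 of the 30982 gene names there, since S100A10 has 2 probes. OM, the original monolayer, was kept for 14 days in RPMI-1640 with fetal calf serum. MB, the melanoma bodies, grew for 14 days in hESC medium, which holds DMEM/F-12 and a serum replacement. NM, the new monolayer, had those 14 days in hESC medium before a further 10 days in the standard medium of OM, and three-dimensional bodies that remained were taken out before its RNA was prepared. Total RNA of each population was labelled with Cy3 and hybridised to 1 array, and all 3 arrays lie on the same slide.

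S100 proteins are small proteins with EF-hands, the loops that bind calcium. Most of them form dimers that open on binding calcium and then dock on partner proteins such as annexins, non-muscle myosin, the tumour suppressor p53 or cytoskeletal proteins. Several are also released from cells and act on receptors, among them AGER (the receptor for advanced glycation end products) and TLR4. Most of the human genes lie side by side on the long arm of chromosome 1, while S100B lies on chromosome 21. In melanoma S100B is the diagnostic marker of the family, and S100A4, also called metastasin, is known for its link with cell motility and metastasis.

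Values are the processed spot signals of the scanner software in arbitrary units (a.u.), and they are printed unscaled. They are not simply the pixel mean less local background. For S100A1 in OM the signal was 2749, with a pixel mean of 2410 and a local background of 37. Folds and log2 ratios were taken after each array was divided by its mean of GAPDH, ACTB and HSP90AA1, which multiplied the MB signal by 1/0.978 and the NM signal by 1/0.877 relative to OM. Each population was measured on 1 array without a replicate culture, so no test across samples could be made and how far a fold can be trusted is limited by the number of arrays. The spread between spots of the same arrays can be judged from the probes printed in 10 spots. There, a single-spot log2 ratio had an SD of 0.0452 (MB over OM), 0.0399 (MB over NM) and 0.0456 (NM over OM). This SD leaves out differences between arrays in labelling and hybridisation. Feature Extraction, the scanner software, gave an error of 10.0% of the signal for a typical spot. For S100A4 this made an error of 0.204 on the log2 ratio of MB to OM. Between 26516 (NM) and 29125 (MB) probes were well above background, and no outlier spot lies among the members. A signal that was not well above background is called at background here. Where the dimmer array was at background, or the brighter was saturated, the fold is a lower bound within this processing and is written as "at least". With another scaling or background correction the fold can be lower. MB enters both the comparison with OM and that with NM, so these are not independent of each other. Since whole populations were measured, fewer cells of a type and less RNA per cell cannot be told apart.

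Probe sequences are shown for the gene that the results turn on and for the 2 members whose probes cross an intron, as the array design lists them, 5′ to 3′. For S100A4 only the first 30 of its 60 bases are given, and the probe (A_23_P94800) matches chr1:150329271-150329330 on the minus strand of hg17. S100A6 is read at chr1:150320328-150320758 on the minus strand and S100A9 at chr1:150143947-150146216 on the plus strand, spans of 431 and 2270 bases for 60-base probes.
S100A4: ataagcagcccaggaagaaatgaaaactcc
S100A6: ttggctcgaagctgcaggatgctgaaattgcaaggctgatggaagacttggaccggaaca
S100A9: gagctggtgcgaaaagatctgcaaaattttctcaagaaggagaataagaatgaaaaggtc
Paralogs in a family can share stretches of sequence, so the probes were compared with each other. The longest run that a member probe shares with a probe of another S100 gene is 7 to 9 bases. For the S100A4 probe, the longest run shared with any of the other 40999 probes is 15 bases.

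S100A4 stood apart from the other members. Its signal was 1215 ± 122 a.u. in OM, 39077 ± 3908 in MB and 1033 ± 103 in NM (error of Feature Extraction for 1 spot). MB was thus far above both monolayers, and the error ranges of the monolayers overlapped. After scaling, S100A4 was 32.9-fold higher in MB than in OM and 34.0-fold higher in MB than in NM. Its log2 ratio of NM to OM was -0.05, close to the single-spot SD. This ratio depended on the scaling. It was 0.02 with the geometric mean of the housekeeping genes, -0.12 by the 75th percentile and -0.23 without scaling. For MB over OM, S100A4 ranked 15 among 11810 known genes (those with a curated RefSeq mRNA and above 100 a.u. on the brighter array), and for MB over NM it ranked 10 among 11838. The spot itself was even on every array. The median over its pixels was 1321 a.u. in OM, 40055 in MB and 1114 in NM, against means of 1311, 40876 and 1126, and the local background was 38 to 41. The 24 spots within 2 positions had a median of 90.3 a.u. in OM, 98.6 in MB and 76.8 in NM. The brightest of them gave 64103 a.u. in OM, 47907 in MB and 89600 in NM, above the S100A4 spot on each array.

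**Figure D1:**
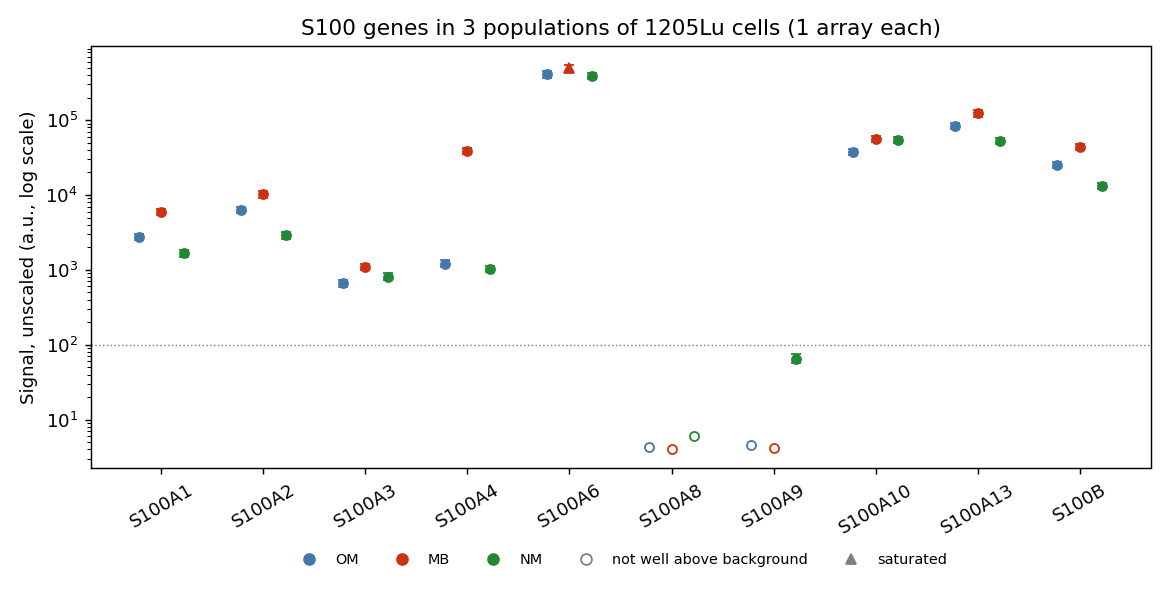
Unscaled signal of each S100 gene (log axis, a.u.; main probe of each gene) on the OM, MB and NM arrays, 1 array each. Bars are the error of Feature Extraction, mostly smaller than the symbols and left out for open symbols, which were not well above background; the triangle is a saturated spot and the dotted line marks 100 a.u. S100A4 moves from 1215 a.u. in OM to 39077 in MB and back to 1033 in NM, while the other genes above the line differ far less between arrays.

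Against this, the background over all known genes was as follows. With 5-fold as the threshold that the study used, 1.11% of genes were higher in MB than in OM and 0.711% lower. Of the members, 8 of 10 were above 100 a.u., and S100A4 was the 1 member past 5-fold, on the higher side. At 2-fold, 6.62% of genes were higher in MB than in OM and 3.72% lower, and 2 members (S100A4 and S100A1) were higher and 0 lower. Against NM, 1.9% of genes were 5-fold higher in MB and 1.54% lower, with S100A4 again the 1 member. At 2-fold, 11.1% of genes were higher in MB than in NM and 9.19% lower, and 5 members were higher (S100A1, S100A2, S100A4, S100A13 and S100B) and 0 lower. Between the monolayers, 0.667% of genes were 5-fold higher and 0.308% lower in NM than in OM, and 4.62% were 2-fold higher and 3.04% lower. No member passed either threshold there, 0 of 8 in each direction. Because the members were picked with these signals known, nothing is read from their shares.

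The 8 members above 100 a.u. were all higher in MB than in OM, with a median log2 ratio of 0.75 where the median over all known genes was 0.15 and 62.9% of genes were higher. The member with the smallest ratio, S100A6, was saturated on MB. Against NM, 7 of the 8 were higher in MB, with a median log2 ratio of 1.31 beside 0.05 over all genes, of which 53.2% were higher. For NM over OM the members were divided, 3 higher and 5 lower, with a median of -0.26 beside 0.11 over all genes. Scaling to the 75th percentile shifted the median of all genes for MB over OM to -0.04. The members' median was then 0.56, with 8 of 8 still higher. Because the members were chosen with these signals known, nothing is read from their directions or medians. S100A11, a bright S100 gene outside the members, was lower in MB than in OM.

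S100B, a dimer that neurons, glia and pigment cells make and that binds p53, gave 25155 a.u. in OM, 43760 in MB and 13307 in NM. Its order was MB above OM above NM. MB was 1.78-fold higher than OM and 2.95-fold higher than NM, and NM was 1.66-fold lower than OM.

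S100A1, best known from heart and skeletal muscle where it acts on calcium release and uptake, followed the same order. The signal was 2749 a.u. in OM, 5932 in MB and 1656 in NM. MB was 2.21-fold above OM, which made it the other member past 2-fold, and this was 1.94-fold when arrays were scaled to the 75th percentile. Over NM the fold was 3.21, and NM was 1.46-fold lower than OM.

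S100A2, an epithelial family member whose product can bind p53, read 6316 a.u. in OM, 10246 in MB and 2905 in NM. The 3.17-fold difference of MB from NM came from both sides, since MB was 1.66-fold above OM and NM 1.91-fold below OM. The last value passed 2-fold under 3 of the scalings, at a log2 ratio of -1.01 by the 75th percentile, -1.01 by quantile normalization and -1.12 without scaling.

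S100A13 takes part in the release of FGF1 and IL1A, which leave cells without a signal peptide. It gave 84023 a.u. in OM, 123069 in MB and 53173 in NM, again with MB highest and NM lowest. MB was 1.50-fold higher than OM and 2.08-fold higher than NM, and NM was 1.39-fold lower than OM. The 2.08-fold difference is the nearest above the 2-fold line, and scaling to the 75th percentile brought it to 1.92-fold. With the geometric mean of the housekeeping genes it also fell below the line, at a log2 ratio of 0.96.

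S100A3, a protein of the hair cuticle, gave a different order of the monolayers. Its signal was 661 a.u. in OM, 1095 in MB and 813 in NM. MB was 1.69-fold above OM but only 1.21-fold above NM, because NM was 1.40-fold above OM. Among members with a measured ratio, it was thus the nearest below the 2-fold line for MB over NM.

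S100A10, also called p11, has lost calcium binding and forms a complex with annexin A2 at the membrane. The main probe gave 37616 a.u. in OM, 56096 in MB and 54647 in NM. Both populations that had been in hESC medium were therefore higher than OM, MB by 1.53-fold and NM by 1.66-fold. NM was 1.09-fold above MB, a difference that turned the other way with quantile normalization or without scaling. The second probe under this name gave 22.0 a.u. in OM, 28.2 in MB and 13.8 in NM and was well above background on MB alone. It lies at chr1:148804222-148804281 on the plus strand (hg17), while the main probe lies at chr1:148768493-148768552 on the minus strand, so they read different transcripts. The second probe entered only the alternatives with other rules for several probes.

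S100A6, or calcyclin, is made by many proliferating cells. The signal was 410235 a.u. on OM, 493008 on MB, where the spot was saturated, and 392651 on NM. The folds of MB are therefore bounds, at least 1.23-fold against OM and, against NM, at least 1.13-fold. NM was 1.09-fold higher than OM, and lower than OM with quantile normalization or without scaling.

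S100A8 and S100A9 form calprotectin, the calcium- and metal-binding complex of neutrophils and monocytes. S100A8 gave 4.36 a.u. in OM, 4.02 in MB and 5.99 in NM, at background on all arrays. S100A9 gave 4.55 a.u. on OM and 4.24 on MB, also not well above background, but 65.4 on NM, where it was. It was at least 3.57-fold higher in NM than in OM and at least 3.76-fold higher than in MB, although its signal stayed under 100 a.u. With normexp, a background correction that keeps every signal positive and adds an offset, both folds of S100A9 were 2.29. Of the 5 leukocyte markers examined, PTPRC (the pan-leukocyte antigen CD45) and FCGR3A were at background on all arrays. CSF3R, the receptor for granulocyte colony-stimulating factor, gave 4.78 a.u. in OM, 11.5 in MB and 440 in NM, at least 24.0-fold higher in NM than in OM, and 7.65-fold with normexp. ITGAM gave 135 a.u. in OM, 194 in MB and 304 in NM, and CD14 58.7 to 70.3. The summed scaled signal of these markers was 219 a.u. in OM, 290 in MB and 930 in NM. Like S100A9, the sum was highest in NM, where CSF3R and ITGAM were the brightest of the markers. Its part in the S100A9 result was not tested.

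**Figure D2:**
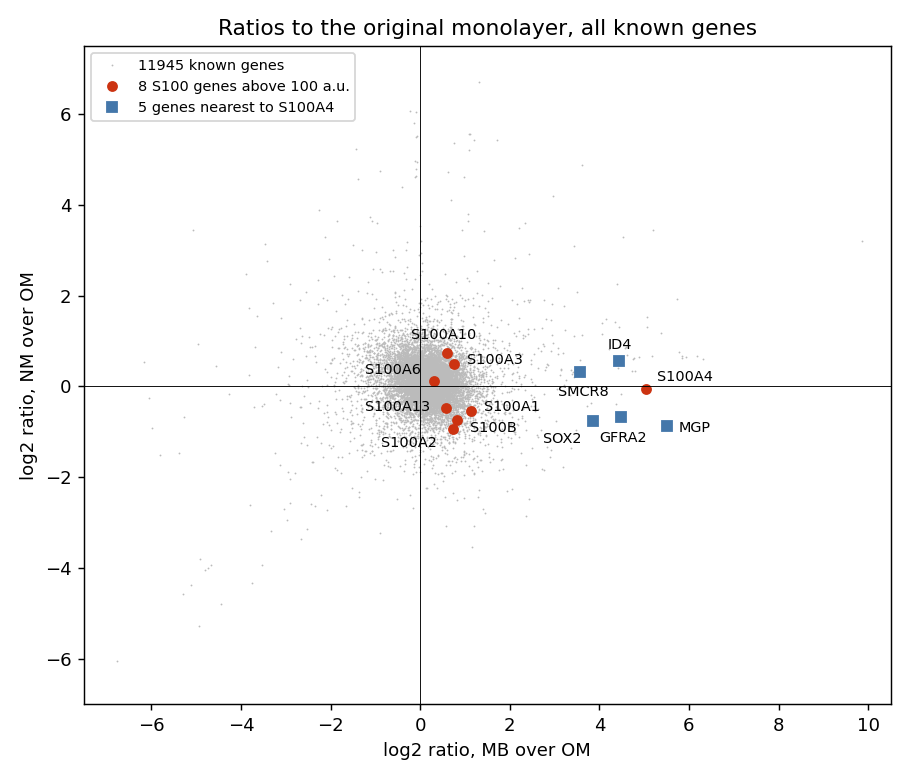
Log2 ratio of MB to OM (x axis) against log2 ratio of NM to OM (y axis) for 11945 known genes above 100 a.u. on some array (grey; 1 gene lies outside the range drawn), the 8 S100 genes above 100 a.u. (red) and the 5 genes nearest to S100A4 (blue squares). S100A4 lies at 5.04 and -0.05, far to the right of the other S100 genes, whose log2 ratios of MB to OM run from 0.30 (a lower bound, S100A6) to 1.14.

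The other 10 genes of the family were largely dim, and 2 of them were above 100 a.u. S100A16, which many tissues make, had the order of S100B, with 45884 a.u. in OM, 66157 in MB and 15794 in NM. MB was 1.47-fold higher than OM, MB 3.76-fold higher than NM, and NM 2.55-fold lower than OM. S100A11, a partner of annexin A1, ran in the opposite direction. It gave 14056 a.u. in OM, 9173 in MB and 19517 in NM, so that MB was below OM by 1.50-fold and below NM by 2.37-fold. The second S100A11 probe gave 1.50 and 2.34. S100A5, S100A7, S100A14 and S100P were well above background on some arrays with at most 57.1 a.u., and S100A7A, S100A12, S100G and S100Z on none. The epidermal proteins that carry an S100 domain at one end were read for 3 of 7 (FLG, RPTN and CRNN), none above 100 a.u.

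Because most of these genes are neighbours, the signals were laid out along the chromosome around the S100A4 probe in the deposited hg17 positions. S100A6 is 8.8 kb away on one side and S100A5 3.6 kb. On the other side S100A3 is 3.8 kb away, S100A2 17.7 kb, S100A16 63.5 kb, S100A14 70.8 kb, S100A13 75.1 kb and S100A1 88.1 kb. None of these neighbours came near the S100A4 change. The adjacent S100A3 and S100A5 had log2 ratios of MB to OM of 0.76 and 0.30, beside 5.04 for S100A4, and S100A5 was dim (36.5 a.u. in OM, 43.9 in MB and 26.2 in NM). Beyond S100A1, C1orf77 had log2 ratios of MB to OM of -0.13, -0.22 and 0.58 at its 3 probes, SNAPAP of 0.23 and ILF2 of 0.09. On the far side, S100A7, S100A7L1 (the array's name for S100A7A), S100A8, S100A12 and S100A9 lie 85.3 to 184.2 kb from S100A4, and the highest signal among them was that of S100A9 on NM. NPR1, 146.6 kb away, was at background on all arrays.

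**Figure D3:**
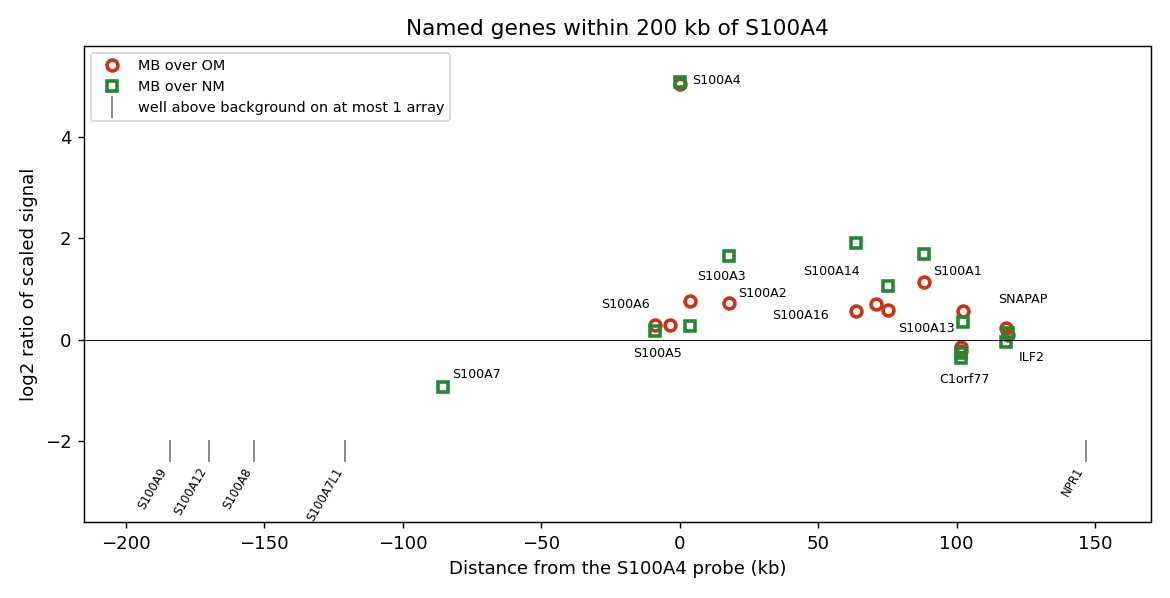
Log2 ratios of MB to OM (red circles) and MB to NM (green squares) of scaled signal against distance in kb from the S100A4 probe, for named genes within 200 kb and probes well above background on both arrays compared. Grey ticks near the base of the plot mark genes well above background on at most 1 array; the S100A6 values are lower bounds. S100A4 is near 5 in both comparisons and every neighbour is under 2.

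The stretch before the start of transcription is shown for S100A4, for its neighbours S100A3 and S100A6 and for S100A9. Each sequence is the 100 bases before the RefSeq start on the gene's strand (GRCh38.p14), at chr1:153545807-153545906 (minus strand) for S100A4, chr1:153549259-153549358 (minus) for S100A3, chr1:153535992-153536091 (minus) for S100A6 and chr1:153357754-153357853 (plus) for S100A9. Capitals mark the letters of the TATA box (TATAAA) in S100A4 and S100A9 and those of the GC box (GGGCGG) in S100A6.
S100A4: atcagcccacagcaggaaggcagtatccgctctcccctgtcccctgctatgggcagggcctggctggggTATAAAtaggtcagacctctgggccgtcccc
S100A3: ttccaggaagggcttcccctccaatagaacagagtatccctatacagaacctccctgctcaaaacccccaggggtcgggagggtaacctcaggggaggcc
S100A6: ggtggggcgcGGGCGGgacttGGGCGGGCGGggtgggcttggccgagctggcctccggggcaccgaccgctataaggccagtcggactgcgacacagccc
S100A9: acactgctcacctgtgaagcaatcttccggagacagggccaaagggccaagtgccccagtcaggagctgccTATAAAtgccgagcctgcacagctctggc
RefSeq promoters matched 19 of the 20 S100 genes, 9 of the 10 members among them, and S100B had no entry in the table used. The 250 bases before each start were searched on both strands for the TATA box letters, for the GC box letters and for an E box, spelled CACGTG. The TATA box letters were found in 10.7% of 35116 promoters, the GC box letters in 42.6% and the E box in 6.34%. S100A4 had the TATA box letters 31 bases before its start and no GC box. S100A6 had the GC box letters 90, 79 and 75 bases before its start, the last pair overlapping. Starting 25 to 35 bases before the start, a window set after the positions were seen, the TATA box letters stood in 2.17% of all promoters. Counted by gene and not by promoter, 8 of 19 S100 genes had them there. The window was set on these S100 promoters and the units differ, so the figures cannot be compared. Of the members, S100A4, S100A8, S100A9 and S100A13 had the letters in that window. Their signals differed widely, as S100A8 was at background on all arrays and S100A13 was 1.50-fold higher in MB than in OM. No S100 promoter held the E box letters.

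The 5 genes with a pattern most like that of S100A4, by distance in log2 MB over OM and log2 NM over OM among 11754 other genes well above background on all 3 arrays, were GFRA2 (distance 0.83), ID4 (0.85), MGP (0.96), SOX2 (1.38) and SMCR8 (1.52). GFRA2, a receptor of the GDNF family, gave 59.1 a.u. in OM, 1297 in MB and 32.7 in NM, 22.5-fold higher in MB than in OM. ID4, an inhibitor of basic helix-loop-helix factors, gave 55.3, 1168 and 71.1 a.u. in the same order, 21.6-fold. MGP, the matrix protein that holds back calcification, gave 131.8 a.u. in OM, 5906 in MB and 62.9 in NM, 45.8-fold. SOX2, a transcription factor of stem and neural progenitor cells, gave 559, 7974 and 287 a.u., 14.6-fold, and SMCR8 69.1, 797 and 75.5 a.u., 11.8-fold. The folds of MB over OM of all 5 were lower with normexp, at 30.82 for MGP, 12.8 for SOX2, 11.04 for GFRA2, 10.71 for ID4 and 6.48 for SMCR8. Likeness here rests on 3 arrays.

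Genes for receptors and binding partners of S100 proteins were read for 32 of 32 listed, 27 of them above 100 a.u. In MB 1 was 2-fold higher than in OM and 1 lower, with 14 higher and 13 lower at any size and a median log2 ratio of 0.04. Against NM, 4 were 2-fold higher in MB and 1 lower, and between the monolayers 0 were 2-fold higher in NM and 3 lower. By the 75th percentile the split for MB over OM was 11 higher and 16 lower, with a median of -0.15, so the list had no settled direction in that comparison.

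Of the annexins, ANXA1, the partner of S100A11, gave 2337 a.u. in OM, 6764 in MB and 2851 in NM, 2.96-fold higher in MB than in OM and 2.13-fold higher than in NM, the latter 1.97-fold by the 75th percentile. ANXA2, with which S100A10 forms its complex, gave 398335 a.u. in OM, 250450 in MB and 356853 in NM. It was 1.55-fold lower in MB than in OM, while S100A10 was 1.53-fold higher. A second ANXA2 probe gave 1.59-fold lower and a further, dim one 2.00-fold lower.

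IL1A and FGF1, the cargoes released with S100A13, had other orders of the populations than S100A13. IL1A gave 707 a.u. in OM, 223 in NM and 16.5 in MB, a value at background. Its level in MB was at least 35.6-fold below that in OM and at least 12.8-fold below that in NM, where normexp gave 9.07-fold and 3.86-fold. FGF1 gave 257 a.u. in OM, 142 in MB and 53.7 in NM, which made NM 4.20-fold lower than OM and MB 2.37-fold higher than NM. With normexp these were 2.41-fold and 1.55-fold, so that FGF1 no longer passed 2-fold for MB over NM.

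Of the receptors, TLR4 gave 942 a.u. in OM, 1361 in MB and 299 in NM, 4.08-fold higher in MB than in NM and 2.76-fold lower in NM than in OM. Its dimmer probes had folds of 2.67 and 1.62 for MB over NM. AGER, named here for its role and not by the rule on signal, gave 525 a.u. in OM, 456 in MB and 354 in NM, and no pair reached 2-fold. STK38, a kinase that S100B binds, gave 1006 a.u. in OM, 1265 in MB and 567 in NM. MB exceeded NM by 2.00-fold, on the 2-fold line itself, and 1.785-fold by quantile normalization. Of the 4 partners 2-fold higher in MB than in NM, only TLR4 stayed so under every scaling and background setting tried. That holds for its main probe, as a dimmer TLR4 probe gave 1.62-fold. MYH9, the non-muscle myosin heavy chain that S100A4 binds, gave 29886 a.u. in OM, 30076 in MB and 31104 in NM, a log2 ratio of MB to OM of 0.04. AHNAK, bound by the S100A10 complex, had a main probe with a log2 ratio of MB to NM of 0.08, while its other probes ran from -1.65 to 1.11, so its direction against NM was not settled.

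**Figure D4:**
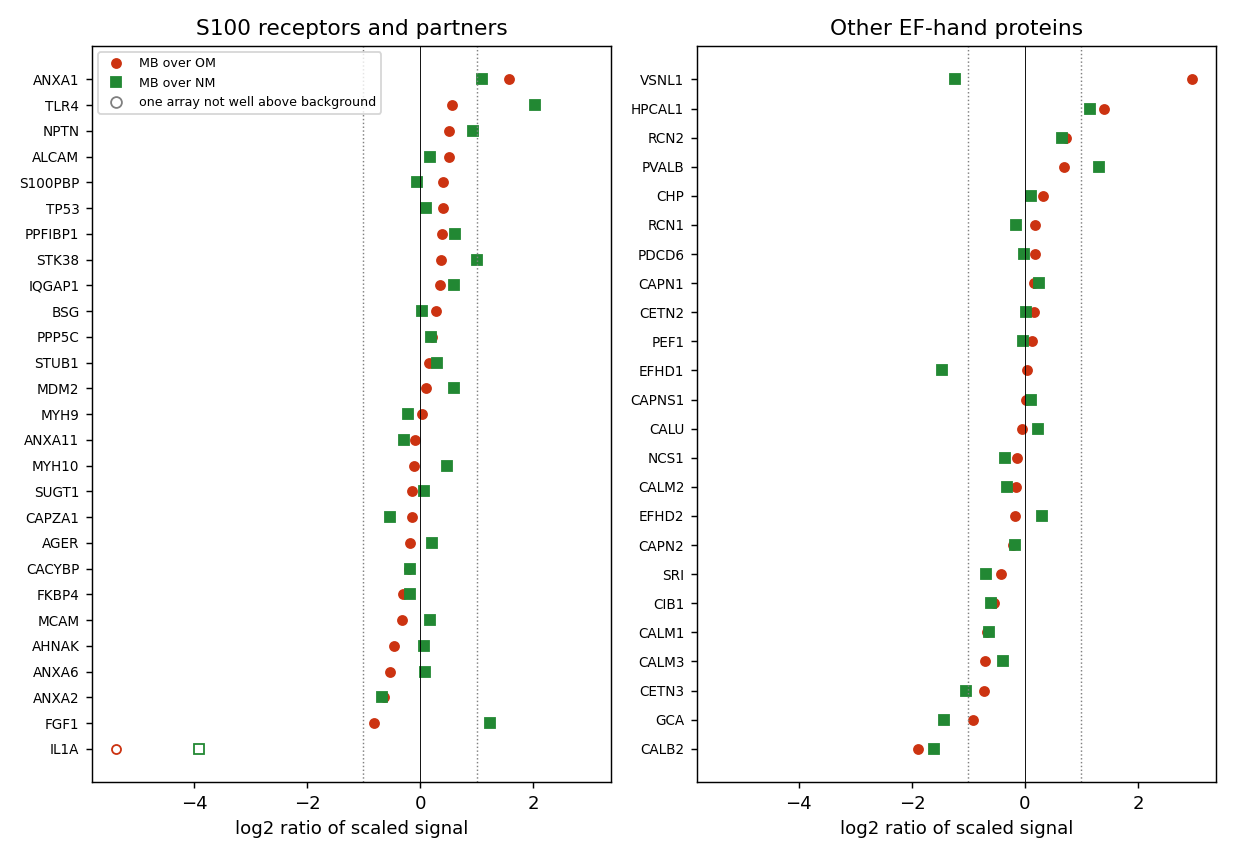
Log2 ratios of MB to OM (circles) and MB to NM (squares) of scaled signal for 27 genes of S100 receptors and partners (left) and 24 other EF-hand genes (right) above 100 a.u., sorted by MB to OM; dotted lines mark 2-fold and open symbols have an array not well above background. Most genes lie between the dotted lines, with ANXA1, IL1A, VSNL1, HPCAL1 and CALB2 outside them for MB to OM.

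Other EF-hand proteins were read for 26 of 26 genes, 24 above 100 a.u., with a median of -0.01 for log2 MB over OM, 12 higher and 12 lower, and by the 75th percentile 5 were higher and 19 lower. For MB over OM 2 genes were 2-fold higher and 1 lower. HPCAL1, a neuronal calcium sensor, gave 13947 a.u. in OM, 35869 in MB and 14525 in NM, 2.63-fold higher in MB than in OM. VSNL1, of the same sensor family, gave 74.9 a.u. in OM, 567 in MB and 1197 in NM, so that MB was 7.75-fold and NM 18.2-fold higher than OM, or 4.41-fold and 9.59-fold with normexp. CALB2 (calretinin) gave 455 a.u. in OM, 121 in MB and 331 in NM, 3.69-fold lower in MB than in OM. Against NM, PVALB and HPCAL1 were 2-fold higher in MB, and CALB2, CETN3, EFHD1, GCA and VSNL1 lower. PVALB fell below this line with normexp (1.76-fold) and CETN3 without scaling (1.86-fold). CALM2, a calmodulin gene, gave 169854 a.u. in OM, 148841 in MB and 167039 in NM, a log2 ratio of MB to OM of -0.16.

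The label of the cells was checked against marker genes. Of 7 melanocytic markers 5 stood well above background in OM, as did 5 in MB and 4 in NM. Only 3 of the 7 (SOX10, MITF and PMEL) were above 100 a.u., and MLANA and DCT did not pass that level on any array. SOX10 gave 6254 a.u. in OM, 9382 in MB and 4887 in NM and MITF 423, 718 and 551. PMEL, a melanosome protein, ran the other way between OM and MB, with 286 a.u. in OM, 209 in MB and 271 in NM, 1.34-fold lower in MB than in OM, while the pigment enzymes TYR and TYRP1 were at background on all arrays. The fibroblast genes COL1A1, COL3A1 and LUM were at background as well, although PDGFRB was not (1246 a.u. in OM, 2322 in MB and 2737 in NM). DCN gave 12.9 a.u. in OM, 26.8 in MB and 22.5 in NM and was well above background on MB alone. Of the keratinocyte markers KRT5, KRT1 and IVL were not well above background, KRT10 gave 32649 to 39383 a.u., and KRT14 gave 213, 373 and 118 a.u. for OM, MB and NM.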

How the data were processed

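Each of 3 cell populations gave RNA for 1 Agilent 1-colour array. The authors deposited spot intensity values from Feature Extraction (version 9.5.3.1 per the file headers, 9.5 per the labels). They are linear, with background subtracted, low values replaced by a surrogate and no scaling between arrays. They also hold a further correction, since member signals differ from the pixel mean less local background. The deposited value table holds the same intensity values (130128 of 130128 within 0.1%).

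Control and outlier spots were left out, spots sharing a probe were averaged. Signals were divided, array by array, by the average for GAPDH, HSP90AA1 and ACTB (probes printed in 10 spots), after the study's use of 3 housekeeping genes. HSP90AA1 was taken because the study names HSP90 without a gene. A gene took its probe with the highest mean signal. It counted as past 5-fold or 2-fold if the brighter array exceeded 100 a.u. unscaled. For a bound, the dim value was its own signal or the array's lowest signal well above background, whichever was higher (20.9 a.u. on OM, 19.4 on MB, 29.1 on NM). With 1 array per population there is no p-value, and the populations share slide and scan.

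Members and gene lists were chosen with earlier results of these data known. Named genes were the members, list genes past 2-fold or bright, named genes within 200 kb of S100A4 and the 5 nearest in pattern. Alternatives were the 75th percentile, quantile normalization, no scaling, the geometric mean, HSP90AB1, no background subtraction, normexp with offset 50 (R 4.3.3, limma 3.58.1), outlier spots kept, the deposited value table, other rules for several probes and other filters on dim signals. Without background subtraction and with normexp, pixel means took the place of the processed signals. Calls were tested on simulated data. Computations ran in Python 3.11.15 (pandas 2.3.3, numpy 2.4.6, matplotlib 3.10.9). Probe positions are in hg17 and promoters, from RefSeq, in GRCh38.p14, and the builds were not combined. Exon annotation in hg17 was not used here.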

Additional observations from a re-analysis of the deposited data

How the results depend on the processing

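S100A4 was 28.9-fold higher in MB than in OM by the 75th percentile, 34.5-fold by quantile normalization, 31.1-fold with normexp and 31.6-fold without background subtraction. Over NM it was 31.4-fold by the 75th percentile, 36.7-fold by quantile normalization, 37.8-fold without scaling, 31.8-fold with the geometric mean, 32.2-fold with normexp and 32.7-fold without background subtraction. Its other alternatives moved it by less than the single-spot SD. Members past 2-fold for MB against OM numbered 1 by the 75th percentile, since S100A1 was lost. For NM against OM 1 member, S100A2, passed 2-fold by the 75th percentile, by quantile normalization and without scaling. Without a filter on low signals S100A9 was added, giving 2 members past 5-fold for MB against NM, 1 past 5-fold for NM against OM and 1 past 2-fold there. This takes its signals at background on OM and MB as measured, while its bounds of 3.57-fold and 3.76-fold are under 5-fold. The other counts stayed within 1.5 times. Among them, members past 2-fold for MB against NM numbered 4 by the 75th percentile and with the geometric mean, since S100A13 was lost.

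Of 276 log2 ratios of single members under the alternatives, 157 moved by less than the SD and 119 by more. The 157 include every ratio from the deposited value table, which holds the same intensities and could not differ. They also include every ratio with outlier spots kept, which could hardly differ because no member spot is an outlier. Of the 276, 11 had the opposite sign, none from a 2-fold difference. Those 11 were NM over OM of S100A4, S100A6, S100A8 and S100A10, MB over NM of S100A10 and MB over OM of S100A9. For S100A10, NM over OM turned only with its second probe, which is dim and reads another transcript. MB over NM of S100A10 turned with that probe, with the mean of both probes, with quantile normalization and without scaling. No paired analysis was possible because each population has 1 array, and leaving out an array leaves no comparison. Signals near background limit S100A8 and S100A9, and saturation limits S100A6.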
